A study of Mus musculus with 3 samples.

Results

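Barcodes with pericyte RNA were chosen by their counts of 3 genes, Cox4i2, Higd1b and Ndufa4l2, in droplet single-cell RNA libraries of sorted mouse lung endothelium. A barcode was taken when it held at least 1000 genes, under 20% mitochondrial UMIs, at least 3 UMIs of these 3 genes with at least 2 of them detected, and under 5 UMIs of the fibroblast genes Dcn, Col1a1 and Col1a2. The rule found 1243 of the 35515 barcodes that passed the limits on genes and mitochondrial UMIs. They are called members here, and they were 372 in control, 345 at 6 h and 526 at 30 h. Of these, 343, 326 and 511 also carried endothelial RNA, and the other 29, 19 and 15 did not.

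The study asked how lung endothelium responds to arriving melanoma cells. Lungs came from wild-type C57BL/6 mice, adult males by the study's methods, after a tail-vein injection, and the cells were dissociated by warm collagenase digestion and sorted as positive for PECAM1 and negative for PTPRC. The control group received PBS and was sampled at 6 h, the melanoma 6 h group received 200000 B16-F10 cells and was sampled at 6 h, and the melanoma 30 h group received the same number of cells and was sampled at 30 h. B16-F10 is a mouse melanoma line from the same strain, labelled melanoma cells were sorted together with the endothelium according to the 6 h label, and each library holds cells pooled from several mice. Each group is 1 library, so no test between groups was possible, and the intervals given are 95% intervals for counting error only. No library sampled 30 h after buffer was used here, so at 30 h the time since injection, the library and the melanoma cells cannot be told apart.

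Pericytes are mural cells that lie on the outer face of capillaries inside the basement membrane they share with the endothelium. Endothelial PDGF-B recruits them through PDGFRB, their angiopoietin-1 signals to endothelial TIE2, and JAG1 and DLL ligands of the endothelium activate their NOTCH3. They relax when nitric oxide made by endothelial NOS3 activates soluble guanylate cyclase, whose subunits are GUCY1A1 and GUCY1B1, and they tighten in response to endothelin-1 and angiotensin II. A sort for PECAM1 does not select pericytes, so their RNA enters such a library with an attached endothelial cell, with a pericyte that passed the gate, as a chance pair in a droplet, or as free RNA, and the counts do not tell these apart. Empty droplets of 10 to 100 UMIs, which hold free RNA, had the 3 chosen genes at 201, 150 and 190 CPM (UMIs of the genes per 1000000 UMIs). The median member with endothelial RNA had them at 468, 381 and 403 CPM. The rule requires UMIs of these genes, so that higher level is set by the choice.

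The chosen genes encode tissue forms of mitochondrial proteins. Cox4i2 encodes the hypoxia-responsive form of cytochrome c oxidase subunit 4, Ndufa4l2 encodes a hypoxia-induced relative of the oxidase subunit NDUFA4, and Higd1b belongs to the hypoxia-induced gene domain family. In members without endothelial RNA Cox4i2 stood at 2387 CPM in control, 2044 at 6 h and 2589 at 30 h, and Higd1b stood at 948, 831 and 1249. Each CPM value is the sum over the barcodes of 1 population in 1 library. As a share of the UMIs of Cox4i2 and its common form Cox4i1 together, Cox4i2 took 80% (75.3 to 84.1), 80.8% (74.6 to 86.0) and 79.6% (73.6 to 84.8) in these barcodes. In members with endothelial RNA that share was 43.3%, 32.0% and 27.6%. Ndufa4l2 took 83.3%, 90% and 85.7% of the UMIs shared with Ndufa4 in the barcodes without endothelial RNA, and 31.4%, 22.5% and 17.9% in those with it. These are the genes of the rule, so the values describe the choice and are no result.

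The tissue forms of other oxidase subunits were looked for in the same barcodes. Cox7a1, Cox6a2 and Cox8b, the muscle forms of subunits 7A, 6A and 8, had 0 UMIs in members without endothelial RNA in each library, where their common forms were present, with 60, 32 and 21 UMIs of Cox7a2. In the control library the 0 of Cox7a1 beside 60 UMIs of Cox7a2 allows a share of up to 5%, taking 3 counts as the limit for a count of 0. The limits for Cox6a2 were wider, at 9.68%, 16.7% and 18.8% of the UMIs shared with Cox6a1. Members with endothelial RNA held Cox6a2, below those limits, at 3.74%, 2.36% and 1.63% of the UMIs shared with Cox6a1, and other endothelial barcodes held it at 0.339%, 0.436% and 0.463%. The other endothelial barcodes are those with endothelial RNA and 0 UMIs of the 3 chosen genes, 9893, 9208 and 7385 in the 3 libraries.

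**Figure D1:**
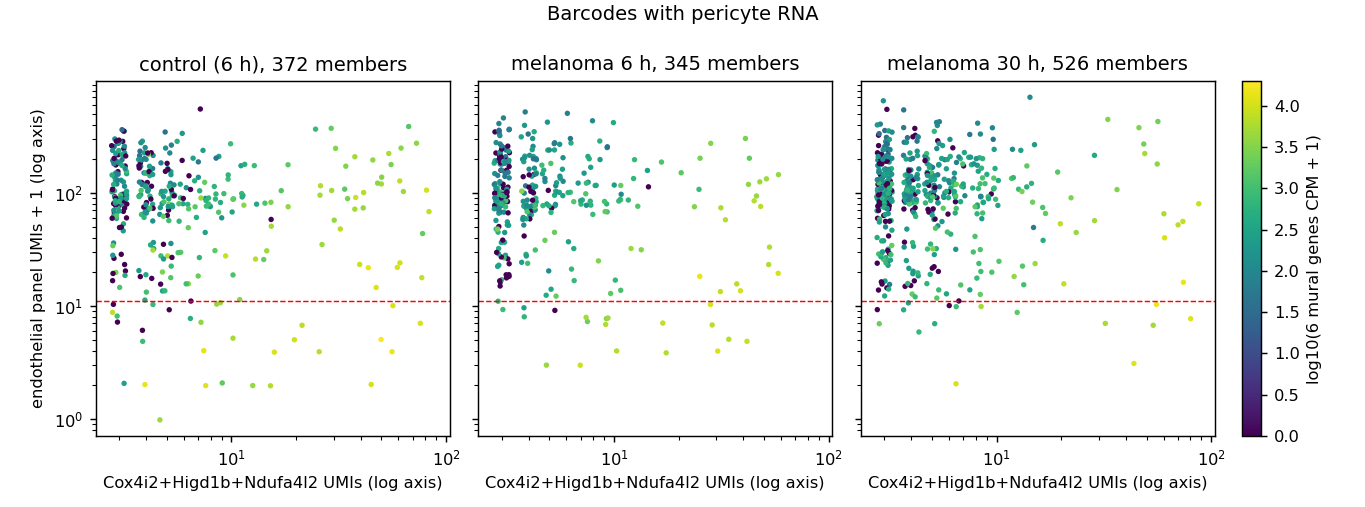
Each point is 1 member, with its UMIs of the 3 chosen genes on the x axis and its UMIs of the endothelial panel plus 1 on the y axis, both on log axes with a small random shift, in the control, melanoma 6 h and melanoma 30 h libraries. Color gives log10 of the CPM of 6 mural genes plus 1, and the dashed line is the limit of 10 endothelial UMIs: most of the 372, 345 and 526 members lie above it near 3 to 5 UMIs of the chosen genes, and the bright points lie to the right and below.

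The members spanned a range from strong pericyte barcodes to endothelial barcodes with a few pericyte UMIs. The median member held 4 UMIs of the 3 genes in each library, and the highest held 84, 61 and 86. The level was read from 6 mural genes that the rule did not use: Postn, Gucy1a1, Pdgfrb, Notch3, Trpc6 and Kcnk3. In the control library these genes summed to 193 CPM in the 116 members with 3 UMIs, 384 in the 122 with 4 or 5, 1039 in the 81 with 6 to 14, and 4888 in the 53 with at least 15. Just outside the rule, the 55 barcodes with at least 3 UMIs of a single gene had 189 CPM, the 446 with 2 UMIs had 104 and the 1611 with 1 UMI had 52.5. The 10164 barcodes with 0 UMIs had 25.3 CPM. At 6 h the same steps inside the rule were 162, 336, 592 and 4435 CPM, and at 30 h they were 160, 235, 523 and 3733. Outside it, barcodes with at least 3 UMIs of a single gene had 207 and 202 CPM at these times, those with 2 UMIs 126 and 120, and those with 1 UMI 72.6 and 58.7. Barcodes with at least 3 UMIs of a single gene, left out by the rule, were thus at or above the level of members with 3 UMIs, and those with 2 or 1 UMIs were lower. In empty droplets the 6 mural genes summed to 241, 207 and 245 CPM, above the members with 3 UMIs in each library, and the part of free RNA in these lower steps was not tested.

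The label was checked on genes that the rule did not use. In members without endothelial RNA, Postn, Gucy1a1, Pdgfrb, Notch3, Cspg4, Kcnk3 and Trpc6 all stood far above the other endothelial barcodes in each of the 3 libraries. The 6 mural genes summed to 8678 CPM (8145 to 9236) in control, 6236 (5695 to 6814) at 6 h and 8232 (7557 to 8952) at 30 h, against 24.0, 27.8 and 28.3 CPM in other endothelial barcodes. Members with endothelial RNA lay between, at 1087, 662 and 512 CPM. The median barcode among them held 278, 226 and 219 CPM, near the 241, 207 and 245 CPM of empty droplets. Deep barcodes weighed on these sums: without the 5 deepest barcodes of each library the members without endothelial RNA had 5711, 4634 and 2560 CPM, and their median barcode had 5566, 6099 and 2140. None of the 6 genes was detected in 4, 1 and 2 of them and in 70, 56 and 99 members with endothelial RNA. Of the 10 general pericyte markers listed, 5 reached 20 CPM in members, and all 5 were higher than in endothelium in each library, where 20.7% of all genes were. Notch3, Pdgfrb, Vtn and Des were at least 4-fold higher in each library, as were 0.901% of all genes. Some other pericyte markers did not follow, and Anpep had 0 UMIs in members without endothelial RNA. Rgs5, a regulator of G-protein signaling that marks pericytes in brain, had 3, 2 and 0 UMIs in members without endothelial RNA, and the laminin chain gene Lamc3 had 2, 1 and 3. Rgs5 stood at 26.3 and 25.6 CPM in the control and 6 h libraries and was not detected at 30 h, beside 12.7, 9.52 and 11.5 CPM in other endothelial barcodes. The ATP-sensitive potassium channel genes Abcc9 and Kcnj8, also common markers of brain pericytes, had at most 3 UMIs in any library.

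Because fewer pericytes, less RNA per pericyte and a smaller part of a pair cannot be told apart in a summed barcode, the populations with and without endothelial RNA are given separately. The endothelial panel, Pecam1, Cdh5, Cldn5, Egfl7 and Ramp2, summed to 1141, 1367 and 1490 CPM in members without endothelial RNA. It summed to 8647, 8641 and 9023 CPM in members with it, to 9595, 9607 and 10007 in other endothelial barcodes, and to 9954, 9470 and 9118 in empty droplets of 10 to 100 UMIs. The limit on endothelial RNA uses these same 5 genes, so the low sum in the first population is set by the rule.

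Members with endothelial RNA were deeper than endothelial barcodes in general. Their median was 11011, 11558.5 and 11635 UMIs, against 8025, 8196 and 8870 in other endothelial barcodes and 2742, 3250 and 3294 in members without endothelial RNA. Over 5000 genes were found in 25%, 25.8% and 22.8% of members and in 7.77%, 7.14% and 6.77% of other endothelial barcodes. The barcodes with the highest Scrublet scores were marked as doublets, at a set share of 0.8% per 1000 barcodes. They included 61, 55 and 80 members, which was 16.4%, 15.9% and 15.2%, and all of these carried endothelial RNA. The share marked among all passing barcodes, 10.3%, 9.67% and 8.45%, was thus set by the number of barcodes. No member barcode was shared between libraries, and 30 to 50 passing barcodes were shared by each pair of libraries.

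Members took 2.89% (2.61 to 3.19) of passing barcodes in control, 2.86% (2.57 to 3.17) at 6 h and 4.98% (4.57 to 5.41) at 30 h. The difference of 30 h minus control was 2.09 percentage points (1.58 to 2.61). This difference was not seen after thinning to equal depth, which makes the rule stricter because the limit of 3 UMIs stays. After barcodes were thinned to 2000 UMIs, with 257, 263 and 141 shallower barcodes left out, the shares were 1.22%, 0.702% and 1.10%, and the difference of 30 h minus control was −0.118 points (−0.400 to 0.169). Only 154, 83 and 115 members were left after thinning. Without thinning, a limit of 5 UMIs of the chosen genes gave 0.768 points (0.418 to 1.13) for 30 h minus control. The rule counts UMIs, so no order between the libraries is read from these shares. Members without endothelial RNA were 0.225%, 0.157% and 0.142% of passing barcodes, with intervals that overlapped throughout.

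Outside the 3 chosen genes, 63 genes were at least 4-fold higher in members than in other endothelial barcodes in each of the 3 libraries. They were 0.901% of the 6991 genes that averaged 20 CPM or more in members. Both sides of this contrast were set by the chosen genes, so the list describes what accompanied them. The 20 genes with the largest fold in their lowest library included the potassium channel gene Kcnq5, the endothelial lipase gene Lipg, the phosphoprotein gene Spp1, the calcium sensor gene Vsnl1 and the myosin phosphatase inhibitor gene Ppp1r14a, beside Gucy1a1, Postn, Notch3, Pdgfrb and Adcy8. A group of 4 others, Sftpd, Sftpa1, Cxcl15 and Napsa, are genes of alveolar type 2 cells and had at most 7 UMIs in the members without endothelial RNA. The other 59 are called pericyte-enriched genes below. They include Col1a2, whose UMIs the rule limits together with those of Dcn and Col1a1, and the same limit held for other endothelial barcodes.

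The machinery of nitric oxide relaxation formed the first group. Gucy1a1, the alpha-1 subunit of soluble guanylate cyclase, stood at 3396 CPM (3066 to 3751) in members without endothelial RNA in control, 2734 (2380 to 3126) at 6 h and 3025 (2621 to 3473) at 30 h. Other endothelial barcodes held 9.05, 9.65 and 11.1 CPM. Its partner Gucy1b1, the beta-1 subunit, stood at 1922, 1904 and 2408 CPM, against 13.0, 14 and 16.1. After thinning to 2000 UMIs Gucy1a1 was found in 78.0% of the 50 deep enough members without endothelial RNA and in 2.00% of other endothelial barcodes, and without thinning in 81.0% and 7.18%.

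Both subunits are needed for an active enzyme, and both genes lie side by side. Gucy1a1 and Gucy1b1 lie on the minus strand of chromosome 3 with 17737 bases between them by GENCODE M21 on GRCm38, the build named mm10 in the labels. Their promoter windows are shown because both genes of this enzyme stood far apart between members and endothelium. The windows are from RefSeq on GRCm38.p6 and run from 250 bases before to 50 bases after an annotated start. Gucy1a1 has a pair of windows, and the one shown lies at chr3:82145024-82145323. The Gucy1b1 window lies at chr3:82074662-82074961. Both are printed 5′ to 3′ on the minus strand, and capitals mark the core sequence TGGGAA bound by RBPJ, the DNA-binding partner of NOTCH receptors, searched on both strands.
Gucy1a1: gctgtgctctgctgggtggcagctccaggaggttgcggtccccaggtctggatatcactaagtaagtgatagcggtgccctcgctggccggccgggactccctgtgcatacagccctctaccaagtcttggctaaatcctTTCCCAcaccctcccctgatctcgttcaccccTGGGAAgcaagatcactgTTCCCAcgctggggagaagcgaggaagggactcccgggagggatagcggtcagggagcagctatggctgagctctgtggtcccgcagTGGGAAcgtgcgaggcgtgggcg
Gucy1b1: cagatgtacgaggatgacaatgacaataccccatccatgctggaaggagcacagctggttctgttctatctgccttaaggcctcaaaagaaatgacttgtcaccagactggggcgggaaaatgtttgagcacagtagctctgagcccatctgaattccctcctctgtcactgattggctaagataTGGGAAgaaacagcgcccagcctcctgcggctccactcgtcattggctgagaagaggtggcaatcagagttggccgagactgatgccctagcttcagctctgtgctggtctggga
The Gucy1a1 window held 4 matches and the Gucy1b1 window held 1, and the other Gucy1a1 window, at chr3:82145601-82145900, held 0. The 6 letters are frequent, occurring in 25.6% of 32851 mouse promoter windows. At least 1 window with a match was found for 28.3% of all 27025 genes and for 18 of the 45 pericyte-enriched genes that have an entry, which was 40.0%. A match is only a stretch of these letters. No window of Cox4i2, Higd1b or Ndufa4l2 was used here.

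The alternative alpha subunit Gucy1a2 stood at 395 CPM (288 to 528), 767 (585 to 987) and 421 (280 to 609) in members without endothelial RNA and at no more than 1.98 CPM in other endothelial barcodes. Pde5a, the phosphodiesterase that degrades cyclic GMP and the target of sildenafil, stood at 1579 (1357 to 1828), 2032 (1728 to 2373) and 3236 (2818 to 3698) CPM, against 44.7, 44.7 and 48.8. These intervals rest on 29, 19 and 15 barcodes. Without the 5 deepest barcodes of each library Pde5a stood at 1305, 1683 and 1016 CPM, so the higher level at 30 h was not seen. The sum of all pericyte-enriched genes was then 30437, 28036 and 13403 CPM, also lowest at 30 h. Whether the higher level of Pde5a rested on a few barcodes can therefore not be read from these values. In members with endothelial RNA Pde5a stood at 272, 211 and 241 CPM. Prkg1, the cyclic GMP-dependent kinase, was at 3712, 1789 and 2077 CPM, and here endothelium also carried it at 313, 202 and 305 CPM. Pde1a was not detected in members without endothelial RNA, and Pde3a was at 605, 601 (441 to 799) and 361 CPM, against 626, 544 and 549 CPM in endothelium.

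Of the 10 channel genes listed, 3 reached 20 CPM in members. Trpc6, a receptor-operated calcium-permeable channel, was at 1342, 1048 and 843 CPM in members without endothelial RNA and at 2.00, 3.20 and 2.97 CPM in other endothelial barcodes. Kcnk3, the acid- and oxygen-sensitive TASK1 potassium channel, was at 509, 256 and 452 CPM, against 1.54, 1.86 and 1.30. Cacna1c, the pore subunit of the L-type calcium channel, was at 939, 588 and 542 CPM, and endothelium held 38.1, 30.1 and 38.5. The smooth muscle potassium channel genes Kcnma1 and Kcna5 had 0 UMIs in members without endothelial RNA.

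**Figure D2:**
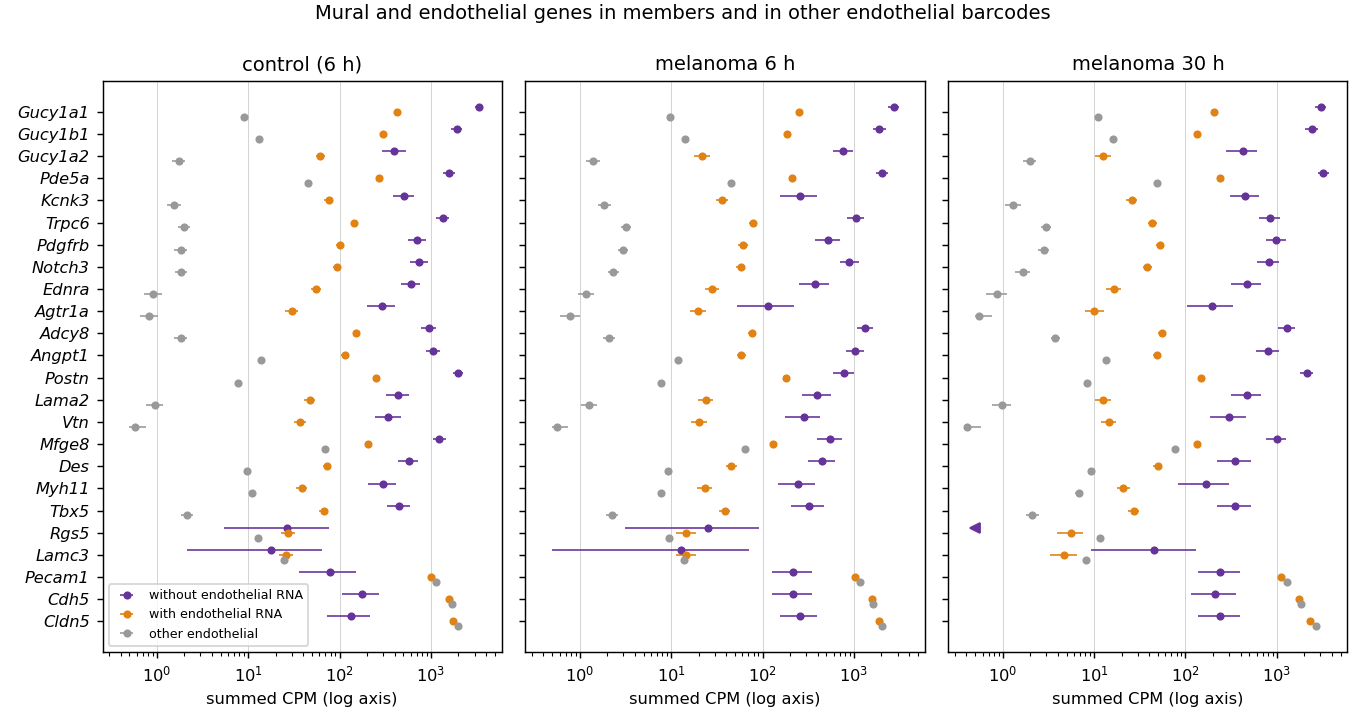
Summed CPM on a log axis for 24 genes in the control, melanoma 6 h and melanoma 30 h libraries, in members without endothelial RNA, members with it and other endothelial barcodes, with 95% counting intervals as bars and a left-pointing triangle for a gene with 0 UMIs. From Gucy1a1 to Tbx5 the members without endothelial RNA lie to the right in each library, Rgs5 and Lamc3 overlap, and Pecam1, Cdh5 and Cldn5 lie in the reverse order.

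Receptors formed the next group. Pdgfrb, the receptor of PDGF-B, stood at 702 CPM (557 to 874), 524 (376 to 711) and 978 (755 to 1247) in members without endothelial RNA and at 1.82, 2.97 and 2.81 CPM in other endothelial barcodes. Notch3 stood at 746, 894 and 813 CPM, against 1.85, 2.33 and 1.66, and its target gene Heyl stood at 123, 128 and 135 CPM, against 0.495, 0.705 and 0.553. Ednra, the contractile endothelin receptor, stood at 605, 371 and 467 CPM and at no more than 1.18 CPM in endothelium. Agtr1a, the angiotensin II receptor, was at 290, 115 and 196 CPM, resting on 33, 9 and 13 UMIs, and Agtr1b had 0 UMIs. Adcy8, a calcium-stimulated adenylate cyclase, was at 948, 1329 and 1294 CPM, against 1.82, 2.08 and 3.77. Across the list of 19 receptor and ligand genes, 8 reached 20 CPM in members and 6 of them were at least 4-fold above endothelium in each library, as were 0.901% of all genes, and genes pass this minimum more easily where members hold them at a high level.

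Members without endothelial RNA held 1 side of several signaling pairs, and other endothelial barcodes held the other. The first were chosen for few endothelial UMIs and the second for 0 UMIs of the 3 chosen genes, so the division describes populations set by these rules. Pdgfb was at 239, 265 and 323 CPM in other endothelial barcodes and at 17.5, 12.8 and 15.1 in members without endothelial RNA, the reverse of Pdgfrb. Angpt1 was at 1053, 1035 and 798 CPM in these members and at 13.9, 11.9 and 13.6 in endothelium, and its receptor gene Tek was at 61.4, 89.4 and 75.3 CPM against 755, 721 and 674. Edn1 was at 297, 249 and 193 CPM in endothelium and at 61.4, 12.8 and 30.1 in the members, the reverse of Ednra. Nos3 was at 27.4, 28.1 and 37.4 CPM in endothelium and had 0 UMIs in the members, where a limit of 3 UMIs is 26.3, 38.3 and 45.2 CPM, so a lower level was not detectable at this depth.

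Other ligands did not divide so clearly. Dll4 was at 99.6, 108 and 119 CPM in endothelium and had 1, 2 and 0 UMIs in members without endothelial RNA, but Jag1 was at 40.4, 46.0 and 36.4 CPM in endothelium and at 70.2, 38.3 and 15.1 in the members, whose counting intervals held the endothelial values. Notch1 was at 175, 115 and 226 CPM in the members and at 215, 226 and 241 in endothelium. Hbegf, a ligand of the EGF receptor, was at 307, 332 and 391 CPM in the members and at 24.6, 49.5 and 26.5 in endothelium, and Angpt2, the other TIE2 ligand, was at 149, 63.9 and 151 against 19.5, 13.1 and 13.0. Bmp5 was at 140, 51.1 and 90.3 CPM in the members, from 16, 4 and 6 UMIs, while its receptor gene Bmpr2 was at 2144, 1958 and 1808 CPM in endothelium and at 535, 639 and 512 in the members. The sphingosine-1-phosphate receptors divided by type, with S1pr1 at 601, 648 and 943 CPM in endothelium and 61.4, 89.4 and 135 in the members. S1pr3 was at 2.83, 2.56 and 3.41 CPM in endothelium and at 140, 141 and 271 in the members, from 16, 11 and 18 UMIs.

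**Figure D3:**
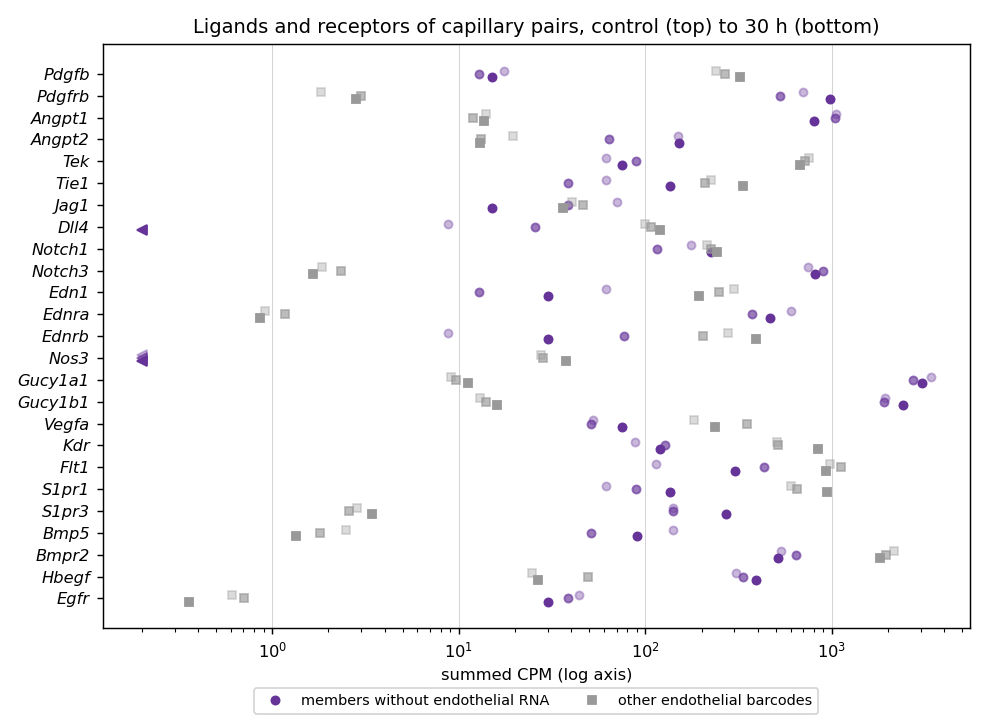
Summed CPM on a log axis for 25 ligand and receptor genes in members without endothelial RNA (circles) and other endothelial barcodes (squares), with the control library palest and uppermost and the 30 h library darkest and lowest in each row, and a left-pointing triangle for 0 UMIs. Pdgfb, Tek and Edn1 lie to the right in endothelium, and Pdgfrb, Angpt1, Ednra, Gucy1a1 and Gucy1b1 lie to the right in the members.

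Matrix genes were divided. Postn, the matricellular protein periostin, stood at 1983 CPM (1733 to 2259) in members without endothelial RNA in control, 779 (596 to 1001) at 6 h and 2122 (1786 to 2503) at 30 h, with 7.69, 7.76 and 8.40 CPM in other endothelial barcodes. The laminin chain gene Lama2 stood at 439, 396 and 467 CPM, against 0.946, 1.27 and 0.981, and Vtn, encoding vitronectin, stood at 342, 281 and 301 CPM, against 0.572, 0.564 and 0.401. Basement membrane collagen was shared by both cell types. Col4a1 was at 1430, 1009 and 1656 CPM in the members and at 767, 779 and 876 in endothelium. Of the 20 matrix genes listed, 14 reached 20 CPM in members, 11 of these were higher than in endothelium in each library, where 20.7% of all genes were, and 5 were at least 4-fold higher, as were 0.901%.

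Contractile genes were present, and single barcodes weighed heavily in some of them. Des, the intermediate filament protein desmin, was at 570, 447 and 346 CPM in members without endothelial RNA, against 9.78, 9.20 and 9.34 in endothelium, and Cald1, encoding caldesmon, was at 983, 1124 and 858, against 177, 175 and 236. Acta2, smooth muscle actin, was at 869 CPM in the control library, but 85 of its 99 UMIs lay in a single barcode that also held 182 of the 273 smooth muscle marker UMIs and 12 UMIs of the chosen genes. Without that barcode Acta2 stood at 132 CPM. At 6 h and 30 h it was at 243 and 196 CPM, again with 13 of 19 and 11 of 13 UMIs in 1 barcode each. Of these members 12 of 29, 7 of 19 and 8 of 15 had no UMI of the 8 smooth muscle markers. The 8 smooth muscle markers summed to 2395, 907 and 722 CPM in these members, against 27.6, 35.4 and 25.9 in other endothelial barcodes. Without the barcode with the most of these UMIs in each library the sums were 857, 593 and 424 CPM. Among the markers, Cnn1 and Pln were at or near 0, with 3, 0 and 0 UMIs of Cnn1 and none of Pln.

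Transcription factor genes included those of lung mesenchyme. Tbx4, which marks lung mesenchyme, was at 281, 371 and 331 CPM in members without endothelial RNA and at 1.93, 2.17 and 1.91 in endothelium, and Tbx5 was at 447, 319 and 346 against 2.15, 2.24 and 2.1. Ebf1 was at 1246, 690 and 888 CPM, against 50.9, 47.5 and 65.5, and Tbx2 was at 641, 984 and 617, against 143, 141 and 172. Foxf1, a mesenchymal factor that lung capillary endothelium also expresses, was lower in these members, at 211, 76.7 and 196 CPM against 534, 546 and 736. Ebf2, Meox2 and Nkx2-3 were not detected in them.

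The other cell types that a lung barcode could hold were looked for in the members without endothelial RNA. The 10 fibroblast markers summed to 1272, 345 and 316 CPM there and to 60, 54.5 and 74.9 CPM in other endothelial barcodes, with Col14a1 and Pi16 at 0 and Pdgfra at 4, 1 and 0 UMIs. In the control library 1 of these barcodes reached 22927 CPM of fibroblast markers. The rule itself limited fibroblast RNA, and 124, 61 and 65 further barcodes met the rest of the rule and were left out by that limit. Melanoma genes summed to 8.77, 25.6 and 0 CPM, with Dct, Tyr, Tyrp1 and Sox10 at 0.

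A few members with endothelial RNA carried large amounts of RNA from other cells. The surfactant gene Sftpc of alveolar type 2 cells stood at 5419, 4949 and 5726 CPM in members against 1045, 1401 and 695 in other endothelial barcodes. Few barcodes held most of it. In each library 5 members had 91.5%, 80.8% and 59.6% of these UMIs, and without them the level was 460, 949 and 2313 CPM. No barcodes were left out of the endothelial values, so these levels are not compared with them. Members over 10000 CPM of the type 2 list numbered 8 of 372, 7 of 345 and 10 of 526. Among other endothelial barcodes they were 34 of 9893, 31 of 9208 and 12 of 7385. Members without endothelial RNA held Sftpc at 184, 166 and 45.1 CPM, below the 4785, 4098 and 4060 CPM in empty droplets. Lyz2 had the same pattern as Sftpc, with 88.3%, 83.8% and 64.0% of its UMIs in 5 members, and which cells it came from was not tested. Of the 10 leukocyte genes listed, 1 reached 20 CPM in members.

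The endothelium that accompanied pericyte RNA was compared with endothelium in general. Lung capillaries hold general capillary cells and aerocytes, the thin gas-exchange cells, and each barcode was placed on the aerocyte side when the fraction of aerocyte genes among its UMIs of both panels was above 0.5. Of members with endothelial RNA 6.76% (4.34 to 9.98), 5.26% (3.10 to 8.29) and 9.68% (7.25 to 12.6) lay on the aerocyte side, against 13.4%, 13.0% and 19.4% of other endothelial barcodes. The differences were −6.63 percentage points (−9.15 to −3.35), −7.74 (−10.0 to −4.64) and −9.69 (−12.3 to −6.64), negative in all 3 libraries. The share did not follow the amount of pericyte RNA in 1 direction, at 8.04% of members with 3 to 5 UMIs of the chosen genes and 4.31% of those with 6 or more in the control library, 4.24% and 8.05% at 6 h, and 9.34% and 10.6% at 30 h. With Tbx2 and Adgrl3, which members without endothelial RNA carried, left out of the panels the differences were −5.50, −7.00 and −9.62. Between 16 and 34 members a library lay near the limit, at fractions of 0.4 to 0.6.

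Aerocyte and vein genes were lower in these members, and general capillary and artery genes were at the level of endothelium. The aerocyte gene Car4 was at 417, 378 and 527 CPM in members with endothelial RNA and at 556, 464 and 877 in other endothelial barcodes, and Ednrb was at 186, 150 and 212 against 277, 204 and 391. The vein panel was lower on the log2 scale by −0.78, −0.87 and −1.63, and the aerocyte panel by −0.32, −0.27 and −0.72. The vein gene Slc6a2 was at 84, 68.2 and 24.8 CPM, against 176, 135 and 137. The general capillary panel differed by −0.09, −0.05 and 0.05 and the artery panel by −0.02, −0.05 and 0.05, while the endothelial panel differed by −0.15 in each library. The lymphatic panel had no common direction, at −0.49, 0.07 and −0.40.

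Pericyte RNA was a smaller part of the members in the melanoma libraries. The 59 pericyte-enriched genes summed to 5603 CPM (5535 to 5672) in members with endothelial RNA in control, 3461 (3409 to 3515) at 6 h and 2386 (2350 to 2421) at 30 h. Against the control library these were log2 ratios of −0.69 (−0.72 to −0.67) and −1.23 (−1.26 to −1.20). In members without endothelial RNA the same genes summed to 42460, 38193 and 37761 CPM, with log2 ratios of −0.15 (−0.22 to −0.09) and −0.17 (−0.24 to −0.10). The sum in members with endothelial RNA was 13.2%, 9.06% and 6.32% of that in members without it, but 18.4%, 12.3% and 17.8% when the 5 deepest barcodes without endothelial RNA were left out of each library, so the order of these shares rested on those barcodes. Other endothelial barcodes stood at 237, 246 and 258 CPM, and empty droplets at 1509, 1341 and 1548.

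These sums weigh deep barcodes most, and the median barcode gave another picture. The median member with endothelial RNA held 1560, 1123 and 1209 CPM of the 59 genes, near or below the level of empty droplets, and those over 10000 CPM were 53 of 343, 26 of 326 and 20 of 511. The sum thus differed more than the median barcode, and strong barcodes were a smaller share. Among members without endothelial RNA the median barcode held 27235, 28626 and 7810 CPM. At 30 h 5 of these 15 barcodes held 60% of the UMIs, and the sum without them was 13403 CPM, against 30437 and 28036 in the control and 6 h libraries without their deepest 5. The near-constant sum at 30 h therefore rested on a few deep barcodes. The median mitochondrial share of these barcodes was 4.05%, 4.51% and 6.08%, against 2.36%, 2.33% and 2.69% in other endothelial barcodes, and its part in the levels was not tested.

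**Figure D4:**
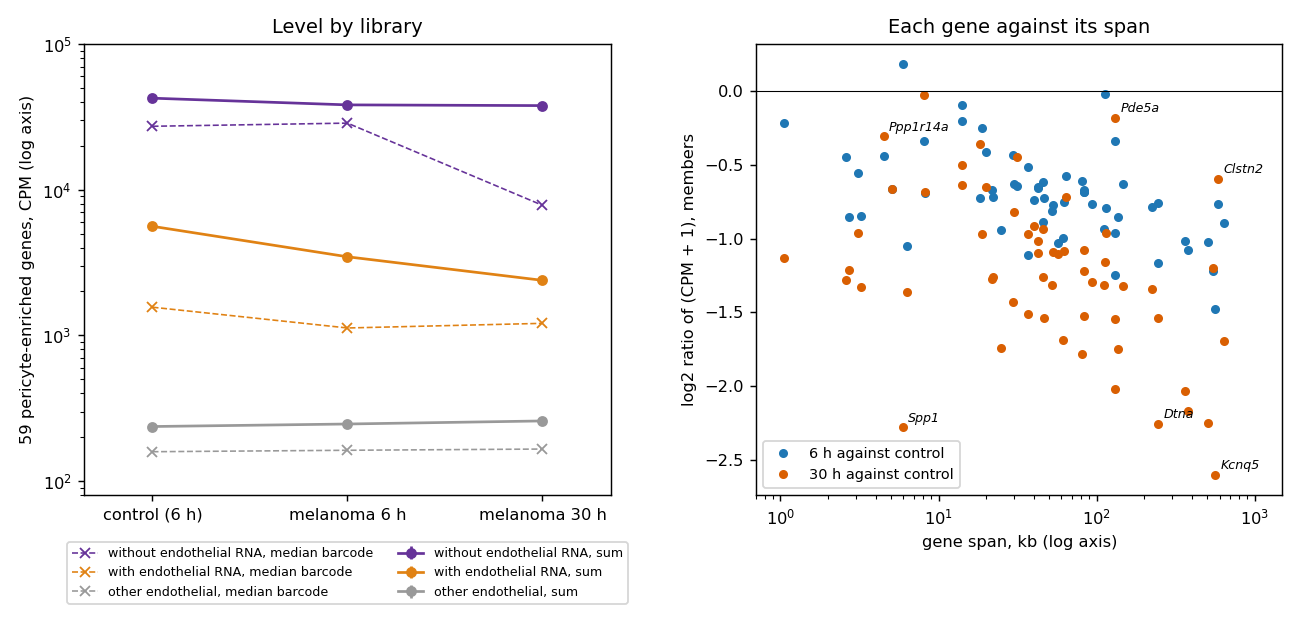
Left, CPM of the 59 pericyte-enriched genes on a log axis by library, as sums with 95% counting intervals smaller than the symbols (solid) and as median barcodes (dashed): the sums in members with endothelial RNA step down from 5603 to 3461 to 2386, and the median barcode without endothelial RNA is at 7810 at 30 h. Right, the log2 ratio of (CPM + 1) to control in all members for each of the 59 genes against its span in kb on a log axis at 6 h and 30 h, with Kcnq5 and Spp1 lowest at 30 h.

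Gene by gene the lower level was broad. Of the 63 genes 58 were lower at 6 h and 60 at 30 h in members as a whole, where 52.6% and 59.1% of all 6994 genes were lower, with median log2 ratios of −0.69 and −1.20 on the scale of CPM plus 1. At 6 h 10 of them were at least 2-fold lower, where 0.458% of all genes were, and none was 2-fold higher, where 0.601% of all genes were. At 30 h 40 were at least 2-fold lower, where 2.27% of all genes were, and none was 2-fold higher, where 0.815% were. The limit of 20 CPM acted on the level averaged over the libraries, control included. A gene high in control could thus pass it while low at 30 h, as Col8a1 did at 47.4, 19.3 and 10.9 CPM. The part of this choice in the counts of lower genes was not tested. The medians over all genes were −0.01 and −0.08, and the same 63 genes in other endothelial barcodes had medians of 0.09 and 0.09. Scaled to the total of the 63 genes, the medians were −0.18 and −0.25, with 0 genes 2-fold changed at 6 h and 3 higher and 7 lower at 30 h. That total holds the 4 alveolar type 2 genes. Scaled to the 59 genes alone, 34 of them were lower at 6 h and 30 at 30 h, with medians of −0.0605 and −0.000396, a scale that centres the genes on their own sum.

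Kcnq5, a voltage-gated potassium channel gene of the M-current family, had the lowest ratio of the 63 genes at both times. In members it stood at 732 CPM in control, 262 at 6 h and 120 at 30 h, log2 ratios of −1.48 (−1.58 to −1.39) and −2.61 (−2.72 to −2.50). It was lower also in members without endothelial RNA, at 5423, 2990 and 1385 CPM. Scaled to the total of the 59 pericyte-enriched genes its log2 ratios were −0.79 and −1.35, and at 30 h it was −1.64 when scaled to all 63. Spp1, encoding osteopontin, took another course, with 419, 475 and 85.6 CPM in members and 2308, 4881 and 617 CPM in members without endothelial RNA. Pde5a differed little, with 304, 240 and 268 CPM in members and a log2 ratio of −0.18 at 30 h, which was 1.08 when scaled to the 59 genes and 0.79 when scaled to the 63.

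Among members without endothelial RNA the genes moved in both directions. At 6 h 21 of the 59 genes were higher and 38 lower, with 5 and 14 intervals clear of 0, and at 30 h 28 were higher and 31 lower, with 8 and 11. Pde5a had log2 ratios of 0.36 (0.05 to 0.68) and 1.03 (0.74 to 1.33), which without the 5 deepest barcodes of each library were 0.37 (−0.12 to 0.85) and −0.36 (−1.04 to 0.28). Adcy8 had 0.49 (0.09 to 0.89) and 0.45 (0.02 to 0.87). Postn was lower at 6 h, by −1.35 (−1.78 to −0.93), and stood at 0.10 (−0.22 to 0.41) at 30 h. Trpc6 stood at −0.36 (−0.76 to 0.04) and −0.67 (−1.14 to −0.22), and the TGF-beta binding protein gene Ltbp2 at −1.10 (−1.72 to −0.51) and −0.78 (−1.38 to −0.20). With 29, 19 and 15 barcodes in 1 library each, these intervals leave out the spread between mice.

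Long genes were lower than short ones in members as a whole. Across the 63 genes the Spearman correlation of the log2 ratio with the gene's annotated span was −0.56 at 6 h and −0.49 at 30 h. Without the 4 alveolar type 2 genes it was −0.52 and −0.44, and across all 6994 genes in members it was −0.17 and −0.33. In other endothelial barcodes it was −0.29 and −0.34, so the relation was not limited to pericyte RNA, and all ratios share the control library. The 10 pericyte-enriched genes of at least 200 kb, among them Kcnq5, Aff2, Adcy2 and Dtna, had medians of −1.02 and −1.86, and the 49 shorter genes had −0.67 and −1.13. In members without endothelial RNA the sum of the long genes had log2 ratios of −0.45 (−0.59 to −0.31) and −0.58 (−0.74 to −0.43), and that of the short genes −0.06 (−0.14 to 0.01) and −0.05 (−0.13 to 0.03). This contrast rested largely on Kcnq5. The other 9 long genes summed to 5554, 5035 and 5945 CPM there, with log2 ratios of −0.14 (−0.33 to 0.04) and 0.10 (−0.09 to 0.28). The part of gene length in these values was not tested.

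Outside the pericyte-enriched genes a few transcripts were lower in members, while endothelium held little of them. Angptl4, a lipoprotein lipase inhibitor gene, was at 70.4, 19.8 and 8.20 CPM in members, and Ntm, a cell adhesion gene, was at 46.6, 12.6 and 5.20. Fst, encoding the activin antagonist follistatin, was at 46.3 CPM in the control library and 4.38 at 30 h. In other endothelial barcodes Angptl4 was at 3.14, 2.05 and 1.52 CPM, Ntm at 1.25, 1.20 and 2.54 and Fst at 0.77 and 0.387 in the control and 30 h libraries. On the scale of CPM plus 1, all of them were over 4-fold above endothelium in control and under 4-fold at 30 h. Their low level at 30 h thus itself left them out of the pericyte-enriched genes, and they are not read as a separate class. Of the control members' Ntm UMIs 51.6% lay in 5 barcodes, against 21.3% of Angptl4 UMIs.

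Some of the other large changes were shared with endothelium. Outside the 63 genes, 64 genes were at least 2-fold changed in members at 6 h, and 19 of them were so in the same direction in other endothelial barcodes. At 30 h this was 72 of 176. The share of all genes that were 2-fold changed in other endothelial barcodes is not given here, and most UMIs of the members come from barcodes with endothelial RNA. No result is therefore read from these overlaps. At 6 h Hspa1b, an inducible heat shock protein gene, went from 18.1 in the control library to 91.0 CPM in members and from 18.3 to 117 in other endothelial barcodes, and Atf3, a stress-induced transcription factor gene, went from 200 to 566 and from 187 to 538. At 30 h Cmss1 went from 457 to 2392 CPM in members and from 467 to 2716 in endothelium, Cdk8 from 152 to 811 and from 178 to 993, and Lars2 from 98.2 to 414 and from 97.0 to 397. Some large changes came from single barcodes. Of the Fabp4 UMIs at 6 h 98.2% lay in 1 member, and of the Ccl21a UMIs at 6 h 96.5% did.

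**Figure D5:**
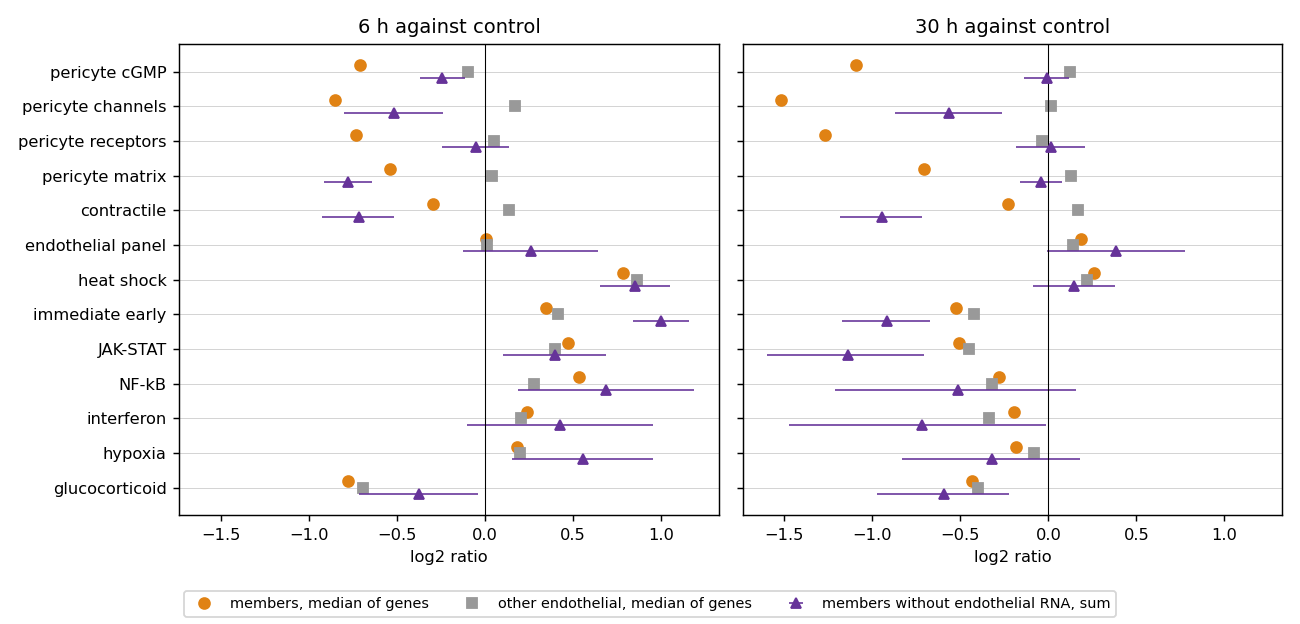
Log2 ratios to control at 6 h (left) and 30 h (right) for 13 gene lists, as medians of genes in all members (circles) and in other endothelial barcodes (squares) and as sums in members without endothelial RNA with 95% counting intervals (triangles). The pericyte lists of members lie to the left of endothelium at both times, and the heat shock and immediate early lists lie to the right of 0 in all 3 populations at 6 h.

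Response genes were counted in the same lists in members and endothelium. All 16 heat shock genes were higher at 6 h in members, where 47.4% of all genes were, with a median log2 ratio of 0.78 against 0.86 in other endothelial barcodes, and their sum in members without endothelial RNA was higher by 0.85 (0.66 to 1.05). Hspa8, the constitutive HSP70, was at 781, 1546 and 873 CPM there. Of the 16 immediate early genes that reached 20 CPM, 14 were higher at 6 h in members, with a median of 0.35 against 0.42 in endothelium, and 3 were higher at 30 h, where 40.9% of all genes were, with a median of −0.53 against −0.42.

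The summed immediate early genes moved more in members without endothelial RNA than in endothelium. At 6 h their sum went from 5010 to 10018 CPM, against 11976 to 15891 in other endothelial barcodes. At 30 h the sums were 2649 and 9405 CPM. In these members the sum had a log2 ratio of 1.00 (0.84 to 1.16) at 6 h and −0.92 (−1.17 to −0.67) at 30 h. At 6 h 5 barcodes held 50.6% of all UMIs of these members, and the difference between the populations was not tested. Fosb was at 70.2, 728 and 60.2 CPM, against 349, 445 and 188 in endothelium, Egr1 was at 175, 677 and 60.2, against 563, 980 and 360, and Btg2 was at 386, 1239 and 181, against 601, 754 and 485. In empty droplets Fosb was at 129, 239 and 95.6 CPM. Such genes also respond to tissue dissociation, and the part of dissociation in these values was not tested.

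Further lists were read in members as a whole and in members without endothelial RNA. Genes of JAK-STAT signaling had medians of 0.47 at 6 h and −0.51 at 30 h in members, against 0.40 and −0.45 in endothelium, and NF-kB target genes had 0.53 and −0.28, against 0.28 and −0.32. Interferon-induced genes had 0.24 and −0.19, against 0.20 and −0.34, and glucocorticoid-induced genes had −0.78 and −0.43, against −0.69 and −0.40. Fkbp5, a glucocorticoid-induced co-chaperone gene, had 16, 4 and 0 UMIs in members without endothelial RNA. The endothelial part of the members weighs heavily in these medians, since most of their UMIs come from barcodes with endothelial RNA. In members without it the sum of the JAK-STAT list had log2 ratios of 0.40 (0.10 to 0.69) and −1.14 (−1.60 to −0.71), and that of the NF-kB list 0.69 (0.19 to 1.19) and −0.51 (−1.21 to 0.16). The interferon list had 0.43 (−0.10 to 0.96) and −0.72 (−1.47 to −0.01) there, and the glucocorticoid list −0.37 (−0.71 to −0.04) and −0.59 (−0.97 to −0.22).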

How the data were processed

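Lung cells sorted for PECAM1 were measured with droplet 3′ RNA sequencing in 3 libraries, 1 per group. The authors deposited unfiltered gene-by-barcode counts of UMIs, made with Cell Ranger 7.2.0 per the file headers on mm10, whereas the methods of the paper give an earlier release. The submitters' processing notes also list Seurat 4.4.0. Whether intronic reads were counted is not given in the sources used here. The libraries held 140601123, 132566934 and 124085451 UMIs, and 12870, 12081 and 10564 barcodes had at least 1000 genes and under 20% mitochondrial UMIs.

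UMIs were summed per population and library and expressed as CPM, with Python 3.11.15, numpy 2.4.6, pandas 2.3.3 and scipy 1.17.1. Endothelial RNA meant at least 10 UMIs of Pecam1, Cdh5, Cldn5, Egfl7 and Ramp2 with at least 3 of them detected. The pericyte-enriched genes were at least 4-fold above other endothelial barcodes in each library. Log2 ratios over gene lists used CPM plus 1 among genes that averaged 20 CPM or more. Intervals were exact Poisson for sums, conditional binomial for ratios, Clopper-Pearson for shares and Newcombe for differences. Doublets were scored with Scrublet in scanpy 1.11.5 at 0.8% per 1000 barcodes and were kept except in an alternative. Shares of barcodes with a gene were compared after thinning to 2000 UMIs. Free RNA was read from droplets of 10 to 100 UMIs.

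The named genes were members of the gene lists, the 20 genes with the largest fold in their lowest library, and the 10 largest rises and falls at each time over all genes and 5 among pericyte-enriched genes. The members, gene lists and rules were chosen with earlier results of these data known. The scripts' interval and ratio steps were tested on simulated data. With 1 library per group, no test between groups was made, and genes and barcodes are not replicates.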

Additional observations from a re-analysis of the deposited data

Results flagged for a closer look

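A few genes moved one way in members and the other way in other endothelial barcodes between the same libraries, and these differences were not tested because each group is 1 library. Kcnq5 had a log2 ratio of −1.48 in members at 6 h and 0.53 in other endothelial barcodes, where it went from 2.52 to 4.07 CPM. Ntm had −2.94 in members at 30 h and 0.65 in other endothelial barcodes. Ccl21a, a lymphatic endothelial chemokine gene, had 4.08 in members at 6 h and −0.57 in other endothelial barcodes, with 391 of its 405 UMIs in 1 member. The beta-globin gene Hbb-bt had 1.80 in members at 6 h and −1.0 in other endothelial barcodes, with 1253 of its 1817 UMIs in 1 member.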

How the results depend on the processing

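No paired analysis was possible because each group was 1 library, and for the same reason leaving out a replicate was not possible. Over all alternatives, 55 planned and 6 added results stayed within their counting error or, for counts, within 1.5 times, while 30 planned and 6 added ones moved and 1 planned and 2 added ones changed sign. The cause of each was not tested unless the setting itself shows it.

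The share of members moved most with depth. The difference of 6 h minus control, −0.03 points, was −0.519 after thinning to 2000 UMIs and −0.493 with no fibroblast limit. The difference of 30 h minus control, 2.09 points, was −0.118 after thinning, a change of sign, and 0.768 with at least 5 UMIs of the chosen genes. The share of members with endothelial RNA was 95.7%, 98.0% and 99.6% with a limit of 5 endothelial UMIs, 85.5%, 88.1% and 90.5% with 20, and 82.9%, 84.1% and 85.5% after thinning.

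Scaled to the total of the 63 genes, the 4 alveolar type 2 genes included, their median log2 ratio was −0.18 at 6 h and −0.25 at 30 h, and for the 59 pericyte-enriched genes scaled to their own total, chosen after seeing the data, it was −0.0605 and −0.000396. With a minimum of 5 CPM, 106 genes were 2-fold higher and 76 lower at 6 h, and 147 and 286 at 30 h. With a minimum of 50 CPM these counts were 18 and 9, and 31 and 78, and with a pseudocount of 5 CPM 21 genes were lower at 6 h. The immediate early median in members at 6 h was 0.42 as a mean of each barcode's own CPM. The 6 mural genes in members against endothelium, 5.73, 4.76 and 4.36 on the log2 scale, were 5.33, 4.29 and 3.86 against endothelium with up to 2 UMIs of the chosen genes, and 6.61, 5.82 and 5.20 with at least 5 UMIs in members. An alternative chosen after seeing the data, leaving out scored doublets, gave 5.88, 4.97 and 4.72. A further pair chosen after seeing the data, without Tbx2 and Adgrl3 in the capillary panels and without the alveolar type 2 genes, kept the direction of the aerocyte difference and of the pericyte-enriched medians. In members without endothelial RNA, also chosen after seeing the data, the sum of the long genes without Kcnq5 was −0.14 at 6 h and 0.0981 at 30 h, a change of sign at 30 h, and Pde5a without the 5 deepest barcodes was −0.36 at 30 h, likewise a change of sign. All values without the 5 deepest barcodes were chosen after seeing the data.

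Depth limits the members without endothelial RNA most. They held 113967, 78260 and 66444 UMIs in all, and 3 UMIs were taken as the limit for a gene at 0 there.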

Other observations

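Barcodes below the limit of 1000 genes also met the rest of the rule for pericyte RNA. There were 34, 19 and 38 of them among the 2775, 2981 and 2485 barcodes with fewer genes that were examined in the control, 6 h and 30 h libraries. Of these, 28, 16 and 35 had no endothelial RNA by the same limit, beside the 29, 19 and 15 members without endothelial RNA.

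Hypoxia-induced genes were also counted. Of the 20 genes listed, 13 reached 20 CPM in members, 1 was higher than in other endothelial barcodes in all 3 libraries and 3 were lower in all 3, where 20.7% and 34.2% of all 6991 genes were. The sum of the list in members without endothelial RNA was 939, 1380 and 753 CPM, against 1164, 1489 and 1115 in other endothelial barcodes, and Egln3, Ankrd37 and Car9 were not detected there. Core clock genes reached 20 CPM for 5 of 16, and their sum was 333, 613 and 421 CPM in members without endothelial RNA, against 312, 291 and 304.

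The 7 genes of the reactive capillary panel, which the study chose on these and other samples, were also counted. Their sum was 467, 788 and 450 CPM in members with endothelial RNA and 532, 827 and 507 in other endothelial barcodes. It was 123, 179 and 75.3 CPM in members without endothelial RNA, where Inhbb and Tmem252 were not detected. These members were chosen for few endothelial UMIs. Their log2 ratio at 6 h was 0.54 (−0.64 to 1.72), too wide to set apart from that of endothelium.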
